A study of Mus musculus with 18 samples.

Results

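The genes examined were the 10 members of a list of triglyceride synthesis enzymes, *Gpam*, *Agpat2*, *Agpat3*, *Lpin1*, *Lpin2*, *Lpin3*, *Dgat1*, *Dgat2*, *Mogat1* and *Mogat2*, chosen by name from the 55487 genes listed in the data. Their RNA was compared between Ctrl and Csn8AKO male mice in 2 adipose depots, subcutaneous white adipose tissue (sWAT, labelled SF) of 12-week-old mice with 4 mice per genotype, and brown adipose tissue (BAT) of 4-week-old mice with 5 mice per genotype. All of the mice carried floxed *Csn8* alleles (*Csn8* f/f), ate chow and were fasted for 4 h. The Csn8AKO mice also carried Cre recombinase under the adiponectin promoter, which removes exons 4 to 6 of *Csn8* in adipocytes, whereas the Ctrl mice were littermates without Cre. *Csn8*, a subunit of the COP9 signalosome, is listed in the files as *Cops8*. The deletion is limited to adipocytes, while each library came from the whole depot of 1 mouse with all of its other cells. The comparison asks how the transcripts of the enzymes that build triglyceride differed when adipocytes lacked CSN8.

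Triglyceride, the storage fat of adipocytes, is built in steps on a glycerol backbone. GPAM adds the first acyl chain to glycerol-3-phosphate at the mitochondrial outer membrane, the AGPAT enzymes add the next one to make phosphatidic acid, the lipins remove the phosphate to give diacylglycerol, and DGAT1 or DGAT2 adds the last chain. The MOGAT enzymes reach diacylglycerol by another route, from monoacylglycerol. DGAT2 and the MOGAT enzymes belong to a single protein family, whereas DGAT1 is unrelated to them in sequence.

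Between 15835721 and 23109603 reads were counted per library in sWAT and between 26658593 and 66719937 in BAT. Ribosomal RNA genes took 1.80% to 19.8% of the reads in sWAT Ctrl libraries, 3.96% to 47.8% in sWAT Csn8AKO, 0.863% to 10.1% in BAT Ctrl and 1.06% to 15.1% in BAT Csn8AKO. *Cops8* was at 33.9 to 36.2 CPM (counts scaled to the effective library size, with TMM factors set within each depot) in sWAT Ctrl and 29.2 to 36.1 in Csn8AKO, which differed by -0.12 on the log2 scale (adjusted p = 0.623), and in BAT it fell by 0.30 on the log2 scale (adjusted p = 0.0211, with 0.388 for library size alone and 0.0525 to 0.0579 without Ctrl replicate 5 or Csn8AKO replicate 1 or 4). Those counts take in the exons that are not deleted and the cells that are not adipocytes. The 6 brown adipocyte markers summed to 65.0 to 141 CPM in sWAT Ctrl and to 9.50 to 24.5 in sWAT Csn8AKO, below every Ctrl library, and to 3895 to 7148 in BAT Ctrl and 4136 to 8734 in BAT Csn8AKO. Of the 5 tested in sWAT, *Cidea* (42.7 ± 25.5 CPM in Ctrl, SD, n = 4, and 0.235 ± 0.0610 in Csn8AKO) and *Cox8b* (35.0 ± 5.48 and 9.24 ± 5.51), named after their values were seen, were called lower and 0 higher. By sign, 3 of the 5 were lower and 2 higher, and the 2 named genes made up most of the Ctrl sum. In BAT 1 of 6 was called higher, *Elovl3*, by 3.34 on the log2 scale (edgeR, adjusted p = 0.000819), also named after its values were seen. There *Cidea* (-0.53, adjusted p = 0.0558) and *Cox8b* (-0.51, adjusted p = 0.0720) were not called, and 4 of the 6 lay above 0. *Ucp1*, the uncoupling protein of brown fat, had 136 reads in sWAT Ctrl replicate 2, 7 to 10 in the other sWAT Ctrl libraries and 0 to 14 in sWAT Csn8AKO. The marker calls of this paragraph stand beside 5.31% of all genes tested called in sWAT and 31.9% in BAT. The 10 adipocyte markers were detected in every group. In sWAT, 4 of the 10 adipocyte markers were lower and 0 higher in Csn8AKO mice, and their summed level was 22922 to 31543 CPM in Ctrl and 8919.8 to 20705 in Csn8AKO libraries. In BAT, 2 were lower and 1 higher, which is near the share of all genes called there. The sums overlapped, at 15425 to 19647 and 16114 to 21569.9 CPM. Macrophage markers were higher in Csn8AKO mice for 8 of 12 genes in sWAT, where their sum was 1251 to 1716 CPM in Ctrl and 1974 to 3491 in Csn8AKO, and for 11 of 12 in BAT, at 118 to 165 and 392 to 563 CPM. Fibroblast and progenitor markers were higher for 1 of 7 genes in sWAT and for 7 of 7 in BAT, where their sum went from 1033 to 1773 CPM in Ctrl to 2736 to 4712 in Csn8AKO. The part of these cell types in the results that follow was not tested. In bulk tissue, fewer adipocytes and less RNA per adipocyte cannot be told apart.

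All 10 genes passed the filter on low counts in both depots. In sWAT, edgeR's quasi-likelihood test with Benjamini-Hochberg adjustment over all genes called 1 of the 10 at an adjusted p under 0.05, *Mogat2*, which rose, where 5.31% of the 18843 genes tested were called, 2.3% as higher and 3.0% as lower. Groups did not overlap for 4 of the 10, with *Agpat3*, *Dgat2* and *Mogat1* lower and *Mogat2* higher in every Csn8AKO library, against 14.0% of all genes tested. In BAT the same test called 4 of the 10, *Gpam* and *Dgat1* higher and *Agpat3* and *Dgat2* lower, where 31.9% of the 22345 genes tested were called, 16.0% as higher and 15.8% as lower, so that this count is near the background and is not a result about the genes as a list. Groups did not overlap for 2 of the 10, *Dgat1* and *Dgat2*, against 21.0% of all genes tested, so that this count too is near the background. The median log2 fold change of the 10 genes was -0.28 in sWAT and -0.080 in BAT, beside medians over all genes of 0.032 and 0.0063. When the libraries were scaled by their totals alone, 106 of the 434 genes called in sWAT and 4183 of the 6270 called in BAT were higher, in place of 434 of 1000 and 3585 of 7121, and the median of all genes moved to -0.040 in sWAT and 0.14 in BAT. The plot of log2 fold changes shows the 10 genes in both depots.

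**Figure D1:**
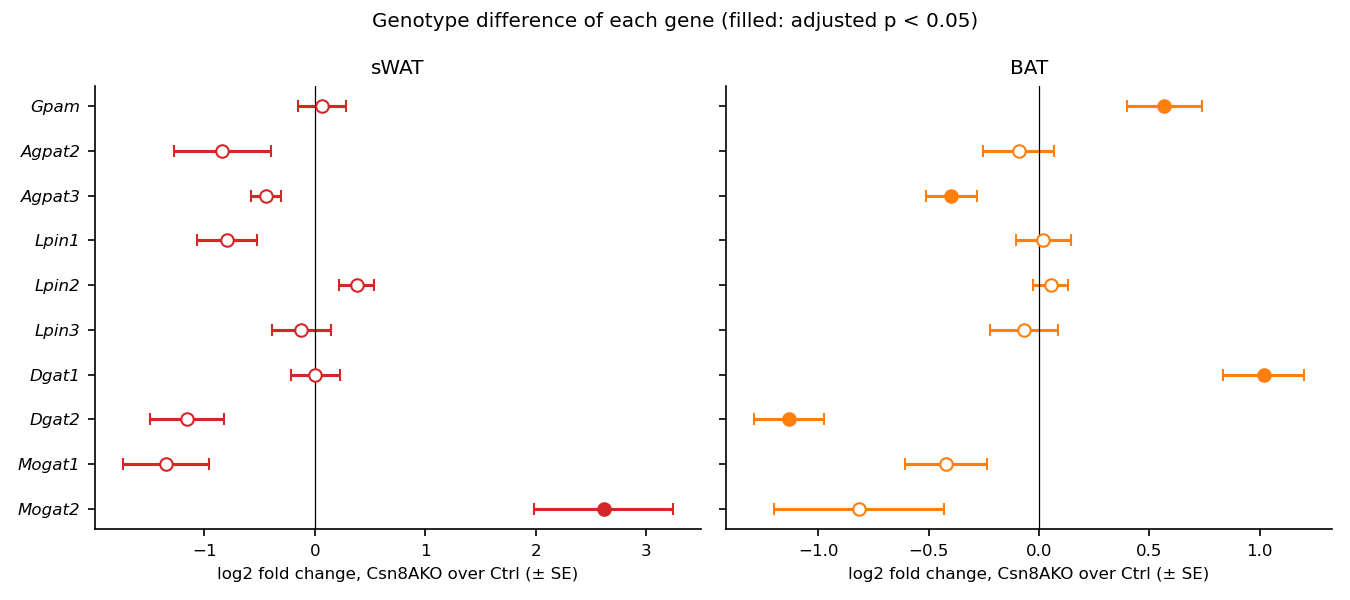
Log2 fold change of each of the 10 genes in Csn8AKO over Ctrl mice (x axis, bars ± SE from the edgeR fit), in sWAT (left, 4 against 4 mice) and BAT (right, 5 against 5), with filled points for an adjusted p under 0.05. *Dgat2* lay near -1.16 in sWAT and -1.13 in BAT, while *Mogat2* lay at 2.61 in sWAT and -0.82 in BAT.

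*Gpam*, the enzyme of the first acylation, rose in BAT and not detectably in sWAT. It lies at chr19:55067268-55127238 on the minus strand (GRCm38) and has 2 transcript starts in RefSeq. The 250 bases upstream of each start are shown because a listed antisense RNA, AC110206.1, begins 25 bases upstream of the inner start and was also higher in BAT. They are written 5′ to 3′ on the strand of the gene, from RefSeq (GRCm38.p6), and capitals mark matches to CCAAT or GGGCGG on either strand.
Gpam, upstream of the distal start, chr19:55127239-55127488, minus strand: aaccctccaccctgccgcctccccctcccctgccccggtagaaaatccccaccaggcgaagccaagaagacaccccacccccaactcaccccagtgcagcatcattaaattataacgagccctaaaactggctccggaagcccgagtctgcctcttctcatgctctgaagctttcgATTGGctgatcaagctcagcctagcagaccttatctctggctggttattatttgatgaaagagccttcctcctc
Gpam, upstream of the inner start, chr19:55099478-55099727, minus strand: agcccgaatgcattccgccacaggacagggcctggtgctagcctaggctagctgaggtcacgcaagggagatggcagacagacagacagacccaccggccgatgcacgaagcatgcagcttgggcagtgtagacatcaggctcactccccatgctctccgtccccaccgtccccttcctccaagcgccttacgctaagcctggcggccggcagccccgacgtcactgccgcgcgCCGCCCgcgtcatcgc
The distal window held 1 match to CCAAT, read as ATTGG, and the inner window 1 match to GGGCGG, read as CCGCCC. Both are frequent, as CCAAT was found in 33.8% and GGGCGG in 32.7% of the 32851 windows of this length in RefSeq. The motifs CACGTG and TCACNCCAC had 0 matches in both windows, where 6.02% and 1.05% of all windows held them. A match describes the letters of the window and not a bound site.

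In BAT, *Gpam* was at 629, 660.2, 958, 1021 and 1235 CPM in the Ctrl libraries and at 1153, 1435, 1365, 1373 and 1352 in the Csn8AKO libraries. The Csn8AKO values lay close together and above 4 of the Ctrl values, but the highest Ctrl library was above the lowest Csn8AKO library, so the groups overlapped. The log2 fold change was 0.57 ± 0.17 (SE, 1.48-fold, adjusted p = 0.0190), from a mean of 901 ± 256 CPM (SD, n = 5) to 1336 ± 107. This call was lost without Ctrl replicate 2 (0.47, adjusted p = 0.0509), and also with no filter on low counts (adjusted p = 0.0549) or in one fit over all groups (adjusted p = 0.0510). In sWAT the Ctrl libraries were at 313, 337, 306 and 311 CPM and the Csn8AKO libraries at 314, 202, 365 and 445. The Ctrl libraries were nearly equal and the Csn8AKO libraries scattered on both sides of them, and the log2 difference was 0.067 ± 0.22 (adjusted p = 0.906). AC110206.1, named after its values were seen, spans chr19:55099502-55117815 within *Gpam* on the plus strand and rose by 0.81 ± 0.20 on the log2 scale in BAT (adjusted p = 0.00756), with 151 to 449 reads in Ctrl and 278 to 845 in Csn8AKO libraries. How the counting used the strand is not stated, so whether reads of *Gpam* and of AC110206.1 were kept apart is not known. The counts of AC110206.1 are few beside those of *Gpam*.

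Of the AGPAT enzymes of the next step, *Agpat3* (chr10:78269178-78352489), an acyltransferase with a part in both triglyceride and phospholipid synthesis, fell in BAT, whereas *Agpat2* (chr2:26593057-26604417), whose loss causes generalised lipodystrophy, was not called in either depot. *Agpat3* in BAT was at 494, 486, 602, 542 and 584 CPM in Ctrl and 353, 525, 391, 388 and 399 in Csn8AKO libraries. Of the Csn8AKO libraries, 4 lay below every Ctrl library, and replicate 2 lay among them. On the log2 scale it fell by 0.40 ± 0.12 (1.32-fold lower, adjusted p = 0.0169). In sWAT the *Agpat3* values were 156, 187, 141 and 165 CPM in Ctrl and 111, 108, 128 and 132 in Csn8AKO. All 4 Csn8AKO libraries were below all 4 Ctrl libraries, yet the difference of -0.44 ± 0.14 on the log2 scale did not pass the test over all genes (adjusted p = 0.0991). It passed with DESeq2 (adjusted p = 0.0374) and in one fit over all groups (adjusted p = 0.0466).

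*Agpat2* in sWAT was at 225, 579, 228 and 224 CPM in Ctrl and 160, 79.4, 175 and 290.4 in Csn8AKO libraries. Replicate 2 of Ctrl stood far above the other 3, and the groups overlapped, the log2 difference being -0.83 ± 0.44 (adjusted p = 0.337). It was -0.36 without Ctrl replicate 2 (adjusted p = 0.724) and -1.41 without the 2 sWAT Csn8AKO libraries in which ribosomal RNA took over 30% of the reads (adjusted p = 0.236). In BAT the values were 983, 770.3, 1354, 735 and 825 CPM in Ctrl and 696, 921, 975, 865 and 924 in Csn8AKO, again overlapping, the log2 difference being -0.091 ± 0.16 (adjusted p = 0.709). The reads of *Agpat2* for each read of *Agpat3* within a library were 1.35 to 3.09 in sWAT Ctrl, 0.736 to 2.20 in sWAT Csn8AKO, 1.35 to 2.25 in BAT Ctrl and 1.76 to 2.49 in BAT Csn8AKO. The ratio did not differ detectably between genotypes by a two-sided exact permutation test, with a log2 difference of -0.40 in sWAT (p = 0.4, adjusted over 6 ratio tests 0.48) and of 0.34 in BAT (p = 0.0952, adjusted 0.143). The sWAT difference was -0.13 without Ctrl replicate 2, -0.12 without Csn8AKO replicate 2 and -0.64 without Csn8AKO replicate 4. Without BAT Ctrl replicate 3, the difference in BAT was 0.45 (exact permutation test, p = 0.0397).

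None of the lipins, the phosphatidate phosphatases of the pathway, was called in either depot by the edgeR test within the depot, although *Lpin1* and *Lpin2* in sWAT passed under some alternatives. *Lpin1* (chr12:16535669-16646966), the main lipin of adipose tissue, was at 418, 783, 772 and 764 CPM in sWAT Ctrl and 383, 264, 378 and 552 in sWAT Csn8AKO. Ctrl replicate 1 lay far below the other Ctrl libraries and among the Csn8AKO libraries, while the other 3 Ctrl libraries were above all Csn8AKO libraries. The log2 fold change was -0.80 ± 0.27 (adjusted p = 0.126), and it passed with DESeq2 (adjusted p = 0.0429), with limma voom (adjusted p = 0.0306) and in one fit over all groups (adjusted p = 0.0245). In BAT, *Lpin1* was at 912, 871, 1095, 1073 and 747 CPM in Ctrl and 1012, 1083, 957, 836 and 877 in Csn8AKO. Those ranges overlapped almost wholly, the log2 difference being 0.020 ± 0.12 (adjusted p = 0.919). *Lpin2* (chr17:71182560-71249817) in sWAT was at 21.9, 17.1, 20.4 and 20.7 CPM in Ctrl and 20.05, 29.5, 26.6 and 28.0 in Csn8AKO. In 3 Csn8AKO libraries it was above every Ctrl library, and the log2 fold change was 0.38 ± 0.15 (adjusted p = 0.200, and 0.0371 in one fit over all groups). In BAT it kept within 16.0 to 16.9 CPM in Ctrl and 16.4 to 18.5 in Csn8AKO, a log2 difference of 0.053 ± 0.079 (adjusted p = 0.651). *Lpin3* (chr2:160880670-160906002), the remaining lipin, ran from 8.24 to 19.1 CPM in sWAT Ctrl and from 9.87 to 17.6 in sWAT Csn8AKO, and from 6.28 to 10.4 and 7.15 to 9.46 in BAT. Its log2 fold changes were -0.12 ± 0.27 in sWAT (adjusted p = 0.855) and -0.068 ± 0.15 in BAT (adjusted p = 0.778).

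The balance of *Lpin1* and *Lpin2* reads was compared within libraries. In sWAT there were 19.1, 45.8, 37.8 and 36.8 *Lpin1* reads for each *Lpin2* read in Ctrl and 19.1, 8.93, 14.2 and 19.7 in Csn8AKO libraries. Apart from Ctrl replicate 1, the Ctrl ratios were all above the Csn8AKO ratios. The log2 difference of -1.17 had p = 0.0857 by the two-sided exact permutation test (adjusted 0.143), and without Ctrl replicate 1 it was -1.44 (exact p = 0.0286, the smallest possible for that number of mice). In BAT the ratio was 44.1 to 67.0 in Ctrl and 50.6 to 61.6 in Csn8AKO, a log2 difference of -0.025 (exact permutation test, p = 0.857).

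The genes of the last step had the smallest adjusted p of the 10 genes in BAT. *Dgat1* (chr15:76502015-76511953) rose and *Dgat2* (chr7:99153658-99182719), the more abundant of the pair in adipose tissue, fell. In BAT, *Dgat2* was at 2189.8, 2202, 3006, 3534 and 2377 CPM in Ctrl and 1249, 1506, 1255, 1024 and 1038 in Csn8AKO libraries. Every Csn8AKO library was below every Ctrl library. It fell by 1.13 ± 0.16 on the log2 scale (2.19-fold lower, adjusted p = 0.000120), from 2662 ± 591 CPM (SD, n = 5) to 1214 ± 197. *Dgat1* in BAT was at 249.8, 249, 262, 258 and 349 CPM in Ctrl and 439, 405, 535, 535 and 856 in Csn8AKO. Again the groups were apart, with replicate 5 the highest in each. It rose by 1.02 ± 0.18 on the log2 scale (2.03-fold, adjusted p = 0.00100). Under the 18 alternatives tried, both genes were called in BAT in the same direction, with log2 fold changes from -1.22 to -1.004 for *Dgat2* and from 0.81 to 1.17 for *Dgat1*.

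In sWAT, *Dgat2* was at 1017, 2115, 1091 and 1139.5 CPM in Ctrl and 601, 325, 631 and 849.5 in Csn8AKO libraries. The Csn8AKO libraries lay below all Ctrl libraries, among which replicate 2 was far above the others. The log2 fold change of -1.16 ± 0.33 was about as large as that in BAT but did not pass the test over all genes in sWAT (adjusted p = 0.0768). It passed with library size alone (adjusted p = 0.0109), DESeq2 (adjusted p = 0.00679), limma voom (adjusted p = 0.0323) and one fit over all groups (adjusted p = 0.0110). *Dgat1* in sWAT was at 105, 170.3, 119 and 145 CPM in Ctrl and 132, 90.4, 139 and 180.5 in Csn8AKO. The ranges overlapped, and the log2 fold change was 0.0060 ± 0.22 (adjusted p = 0.992).

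Because a ratio within a library does not depend on its scaling, the reads of *Dgat2* for each read of *Dgat1* were also compared. In BAT there were 8.77, 8.84, 11.5, 13.7 and 6.82 in Ctrl and 2.85, 3.72, 2.35, 1.91 and 1.21 in Csn8AKO. The groups were apart, with a log2 difference of -2.10 and an exact permutation p of 0.00794 (two-sided, adjusted over the 6 ratio tests 0.0476), the smallest that 5 against 5 mice can give. In sWAT the ratios were 9.68, 12.4, 9.14 and 7.86 in Ctrl and 4.56, 3.59, 4.53 and 4.71 in Csn8AKO. The groups were apart here too, by -1.16 on the log2 scale, with an exact p of 0.0286 that was the smallest possible for 4 against 4 mice and was 0.0857 after adjustment. Without the 2 libraries of high ribosomal RNA, the difference was -1.25. Per kilobase of transcript, *Dgat1* made up 9.57% ± 1.60 (SD, n = 4) of the *Dgat1* and *Dgat2* level in sWAT Ctrl, 19.0% ± 1.98 in sWAT Csn8AKO, 9.68% ± 2.32 (n = 5) in BAT Ctrl and 31.5% ± 9.17 in BAT Csn8AKO. A ratio shows that the pair changed unequally and not which of them changed. The plot of read ratios gives each library.

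**Figure D2:**
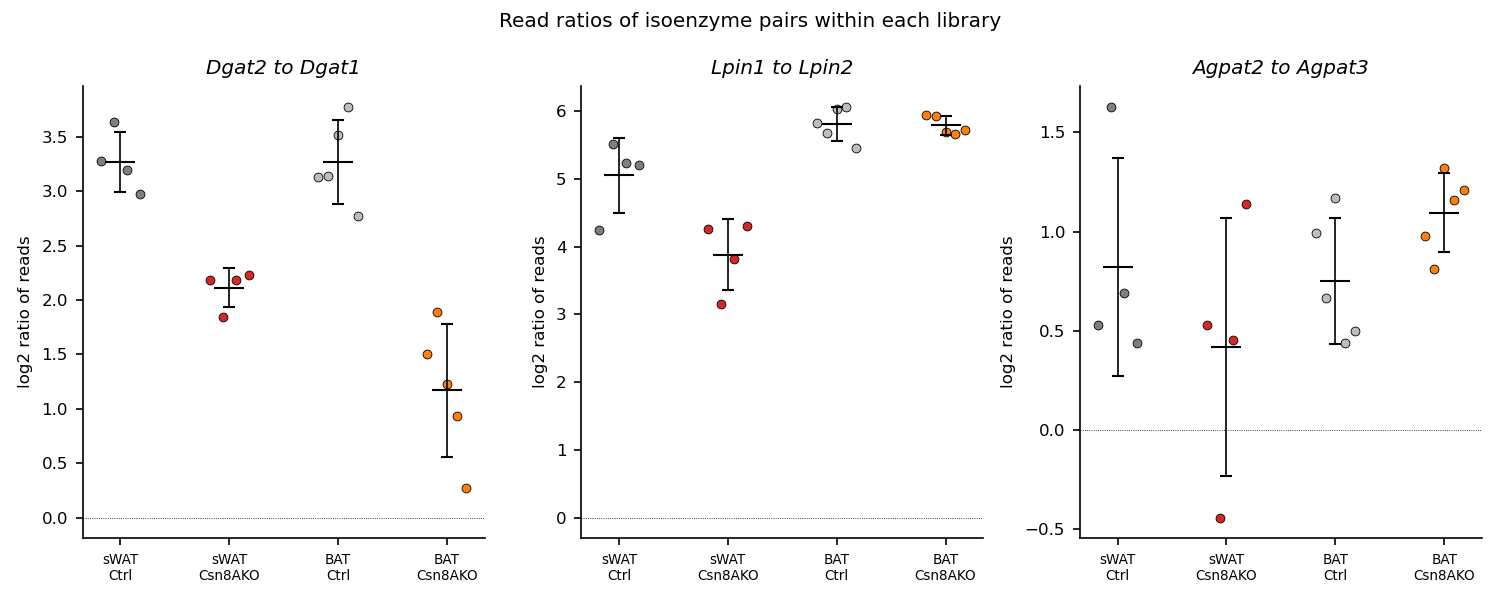
Log2 ratio of reads (y axis) of *Dgat2* to *Dgat1*, *Lpin1* to *Lpin2* and *Agpat2* to *Agpat3* in each library of the 4 groups, with the mean and SD as lines. The *Dgat2* to *Dgat1* ratios of Csn8AKO libraries lay below all Ctrl ratios in both depots, by 1.16 in sWAT and 2.10 in BAT on average.

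Of the MOGAT genes, *Mogat2* rose in sWAT and *Mogat1* was lower without passing the test. *Mogat2* (chr7:99219084-99238619), known best as the intestinal enzyme that rebuilds dietary fat, had 16, 71, 11 and 10 reads in the sWAT Ctrl libraries and 184, 114, 188 and 97 in the Csn8AKO libraries. In CPM these were 0.724, 3.595, 0.651 and 0.519 against 8.52, 5.16, 13.0 and 7.25. All Csn8AKO libraries were above all Ctrl libraries, and Ctrl replicate 2 was far above the other Ctrl libraries. On the log2 scale it rose by 2.61 ± 0.63 (6.12-fold, adjusted p = 0.0469). The call rested close to the threshold. It was lost with no filter on low counts (adjusted p = 0.144), without the 2 libraries of high ribosomal RNA (2.29, adjusted p = 0.189), and without any one of Ctrl replicates 1, 3 and 4 (2.34 to 2.40, adjusted p = 0.0900 to 0.129) or of the Csn8AKO replicates (2.33 to 2.79, adjusted p = 0.0511 to 0.131), whereas without Ctrl replicate 2 it was 3.72 (adjusted p = 0.00463).

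*Mogat1* (chr1:78510991-78538173), an isoenzyme known from adipose tissue and liver, was at 6.83, 14.6, 8.71 and 6.91 CPM in sWAT Ctrl and 5.46, 1.54, 4.34 and 3.22 in sWAT Csn8AKO. All Csn8AKO libraries were below all Ctrl libraries. The log2 fold change was -1.35 ± 0.39 (adjusted p = 0.0800), and it passed with DESeq2 (adjusted p = 0.0121), limma voom (adjusted p = 0.0458) and one fit over all groups (adjusted p = 0.0121). BC035947, which overlaps 1168 bases of *Mogat1* on the other strand and was named after its values were seen, had 18 to 63 reads in sWAT Ctrl and 4 to 19 in Csn8AKO. These ranges overlapped, and BC035947 was not called there by edgeR (-2.04 ± 0.62 on the log2 scale, adjusted p = 0.0939). Whether its reads and those of *Mogat1* were kept apart in the counting is not known. In BAT, *Mogat1* was at 5.87, 4.12, 6.34, 3.69 and 6.13 CPM in Ctrl and 4.44, 4.81, 3.88, 3.35 and 3.07 in Csn8AKO. The ranges overlapped, the log2 difference being -0.42 ± 0.19 (adjusted p = 0.102), and it passed without Ctrl replicate 4 (-0.52, adjusted p = 0.0470).

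In BAT, *Mogat2* was at 5.82, 4.01, 5.50, 6.79 and 4.15 CPM in Ctrl and 2.97, 6.54, 1.17, 2.80 and 1.54 in Csn8AKO. In 4 of the Csn8AKO libraries it was below all Ctrl libraries, and in replicate 2 it was near the highest. The log2 fold change was -0.82 ± 0.38 (adjusted p = 0.131), and without Csn8AKO replicate 2 it was -1.27 (adjusted p = 0.00262). It also passed with limma voom (-1.10, adjusted p = 0.00681). The antisense RNA Gm45012, named after its values were seen, overlaps 7997 bases of *Mogat2*. It had 2 to 6 reads in sWAT Ctrl and 0 in every sWAT Csn8AKO library, and 123 to 433 in BAT Ctrl and 25 to 152 in BAT Csn8AKO. Gm45012 was not tested in sWAT, and in BAT it was not called by edgeR (-1.24 ± 0.49 on the log2 scale, adjusted p = 0.0791). In BAT its counts were thus of the size of those of *Mogat2*, which were 225 to 368 in Ctrl and 34 to 205 in Csn8AKO. Whether the counting kept the reads of both strands apart there is not known. *Dgat2* and *Mogat2* are neighbours on the same strand of chromosome 7, with 36364 bases and 0 annotated genes between them. In the sWAT Csn8AKO libraries *Dgat2* was lower, without being called by the edgeR test within the depot, and *Mogat2* was higher. In BAT the log2 fold changes of both were below 0, at -1.13 for *Dgat2* and -0.82 for *Mogat2*, the latter not called. Of the sWAT Ctrl libraries, replicate 2 was the highest for both genes. Whether their positions bear on this was not tested. *Mogat2* made up 9.37% ± 5.37 (SD, n = 4) of the *Mogat1* and *Mogat2* level per kilobase in sWAT Ctrl and 67.1% ± 7.60 in sWAT Csn8AKO, and 46.2% ± 9.06 (n = 5) and 36.3% ± 12.5 in BAT. The plot of CPM by library shows all 10 genes.

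**Figure D3:**
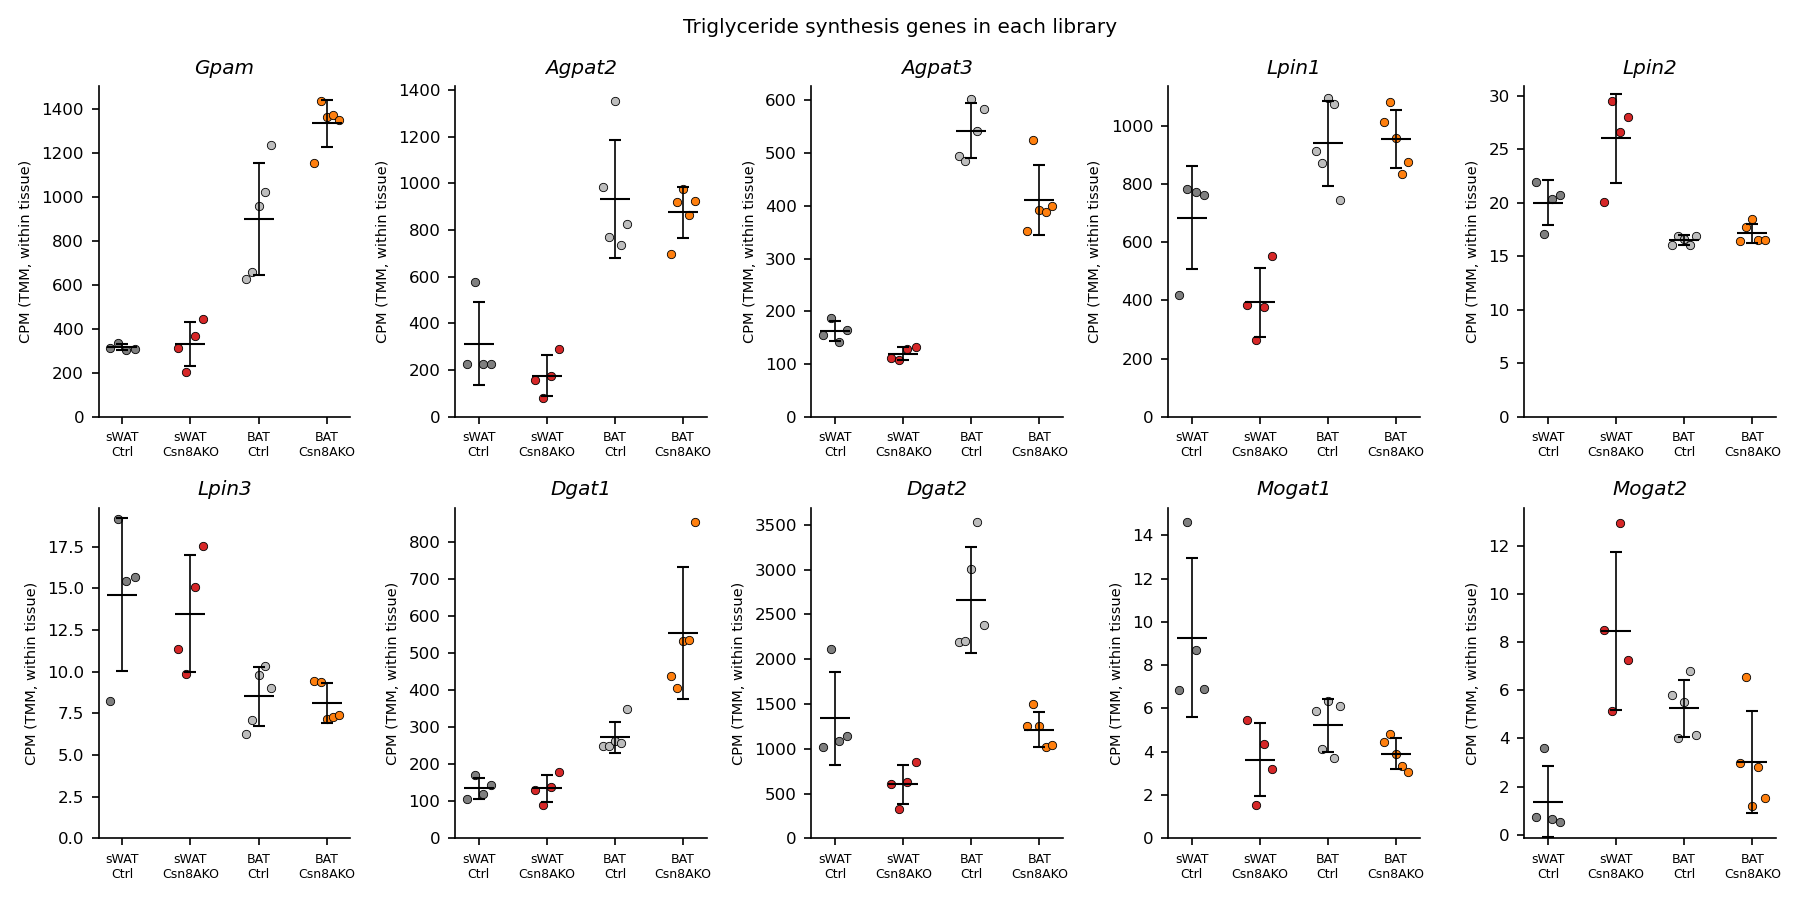
CPM of each of the 10 genes (y axis, TMM factors within the depot, a separate scale for each gene) in each library of the 4 groups, with the mean and SD as lines. *Dgat1* and *Dgat2* in BAT and *Agpat3*, *Dgat2*, *Mogat1* and *Mogat2* in sWAT show no overlap of the genotypes, and Ctrl replicate 2 is the highest sWAT Ctrl library for every gene but *Lpin2*.

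Levels of different genes were compared per kilobase of transcript, as CPM per kilobase. In sWAT Ctrl the order was *Dgat2* (435 ± 168, SD, n = 4), *Agpat2* (147 ± 82.9), *Lpin1* (68.9 ± 17.9), *Gpam* (47.5 ± 2.06), *Dgat1* (44.1 ± 9.43), *Agpat3* (20.8 ± 2.46), *Mogat1* (5.95 ± 2.36), *Lpin3* (3.96 ± 1.24), *Lpin2* (1.64 ± 0.169) and *Mogat2* (0.748 ± 0.809). The ranges of the neighbours *Lpin1* and *Gpam*, *Gpam* and *Dgat1*, *Mogat1* and *Lpin3*, and *Lpin2* and *Mogat2* overlapped. In sWAT Csn8AKO libraries *Dgat2* (195 ± 69.8) was still first, but its range overlapped that of *Agpat2* (82.7 ± 40.8), and *Mogat2* (4.62 ± 1.80) stood above *Lpin3* (3.65 ± 0.948), *Mogat1* (2.34 ± 1.07) and *Lpin2* (2.13 ± 0.340) on average, with ranges that overlapped from each gene to the next. In BAT Ctrl, *Dgat2* (863 ± 192, n = 5) was above *Agpat2* (438 ± 119) with no overlap of their ranges, followed by *Gpam* (135 ± 38.4), *Lpin1* (94.6 ± 14.7), *Dgat1* (89.5 ± 13.9) and *Agpat3* (69.5 ± 6.70). *Gpam* and *Lpin1* overlapped, as did *Lpin1* and *Dgat1*. The low genes of BAT Ctrl were *Mogat1* (3.36 ± 0.790), *Mogat2* (2.86 ± 0.639), *Lpin3* (2.31 ± 0.474) and *Lpin2* (1.35 ± 0.0371). In BAT Csn8AKO libraries the first place was shared, as *Agpat2* (411 ± 50.8) and *Dgat2* (394 ± 63.9) overlapped, and *Dgat1* (181 ± 58.4) overlapped *Gpam* (200.4 ± 16.1) and lay above *Lpin1* (96.0 ± 10.1) without overlap. The plot of levels per kilobase gives the ranges.

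**Figure D4:**
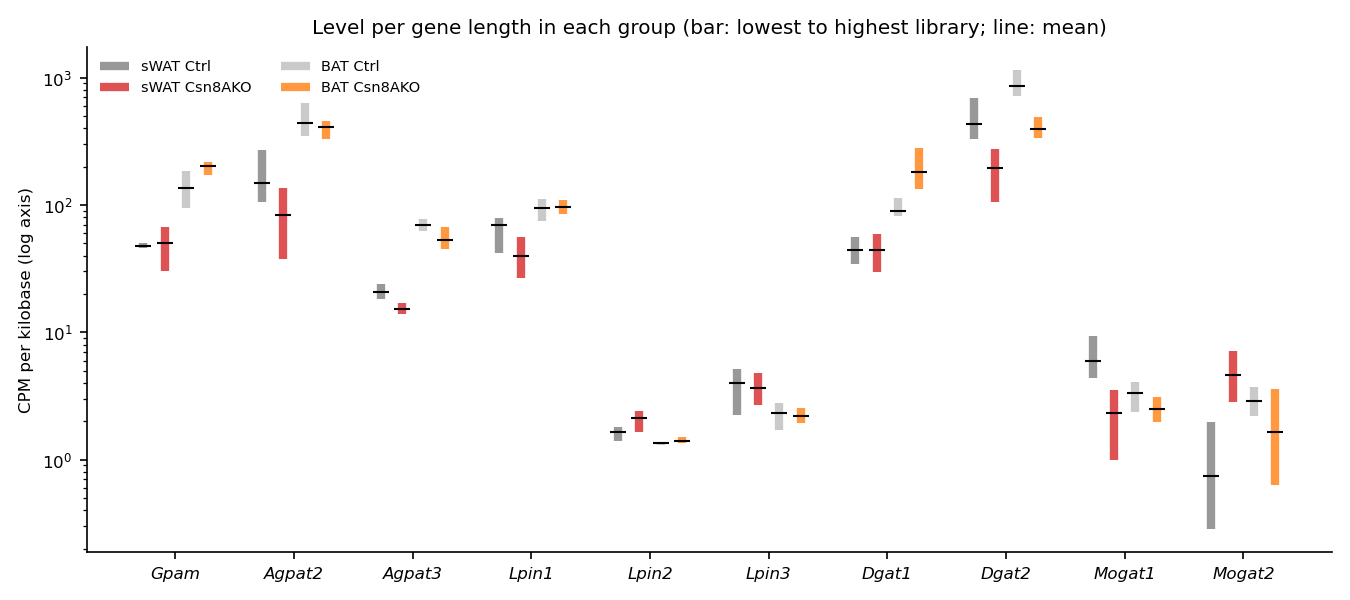
CPM per kilobase of transcript (y axis, log scale) of the 10 genes in the 4 groups, with bars from the lowest to the highest library and a line at the mean. *Lpin2*, *Lpin3*, *Mogat1* and *Mogat2* lie below 10 in every group, while *Dgat2* and *Agpat2* are the highest in each.

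The depots of Ctrl mice were compared in one fit over all 18 libraries. Depot and age, at 12 weeks in sWAT and 4 weeks in BAT, cannot be told apart in this contrast or in the interaction that follows it. Of the 10 genes, 7 were higher and 2 lower in BAT, where 51.5% of the 22509 genes tested were called, 25.9% as higher and 25.7% as lower, and their median log2 fold change was 1.10 beside 0.031 over all genes. *Agpat3* (1.83 ± 0.14, adjusted p = 2.15e-09), *Gpam* (1.60 ± 0.22, adjusted p = 4.39e-06) and *Agpat2* (1.66 ± 0.35, adjusted p = 0.000575) of the early steps were higher in BAT. So were *Dgat1* (1.11 ± 0.23, adjusted p = 0.000370) and *Dgat2* (1.08 ± 0.27, adjusted p = 0.00227), and *Mogat2* (2.01 ± 0.56, adjusted p = 0.00623). These 6 were called under all alternatives tried. *Lpin1* was higher by 0.55 ± 0.21 (adjusted p = 0.0369) and lost the call with RLE size factors, with library size alone and without any of 6 libraries (0.33 without sWAT Ctrl replicate 1, adjusted p = 0.177). *Lpin3* was lower by -0.69 ± 0.22 (adjusted p = 0.0145, and 0.0787 without sWAT Ctrl replicate 2). *Mogat1* was lower by -0.73 ± 0.30 (adjusted p = 0.0475) and lost the call with no filter on low counts and without any of 11 libraries (-0.40 without sWAT Ctrl replicate 2, adjusted p = 0.287). *Lpin2* was not called (-0.18 ± 0.10, adjusted p = 0.161). Scaled by library size alone, 2893 of the 8587 genes called in this contrast were higher in BAT, in place of 5823 of 11597, and the median of all genes moved to -0.21.

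Whether the genotype difference itself differed between sWAT at 12 weeks and BAT at 4 weeks was examined through the interaction term of that fit. Of the 10 genes, 1 was called, where 2.36% of the 22509 genes tested were called, 1.61% as higher and 0.755% as lower. *Mogat2* differed by -3.43 ± 0.76 on the log2 scale (BAT minus sWAT, adjusted p = 0.0219), and it was higher in every sWAT Csn8AKO library and lower than in all BAT Ctrl libraries in 4 of the 5 BAT Csn8AKO libraries. The call was lost without sWAT Ctrl replicate 3 (adjusted p = 0.0563) or 4 (adjusted p = 0.0514), with no filter (adjusted p = 0.0655) and without the 2 libraries of high ribosomal RNA (adjusted p = 0.0573). For *Dgat1* the difference was 1.00 ± 0.31 (adjusted p = 0.106), which passed with DESeq2 (adjusted p = 0.0398), with limma voom (adjusted p = 0.0489), with library size alone (adjusted p = 0.0225), without the 2 libraries of high ribosomal RNA (1.30, adjusted p = 0.0479) and without sWAT Csn8AKO replicate 4 (1.17, adjusted p = 0.0499). For *Dgat2* it was 0.012 ± 0.37 (adjusted p = 0.995). *Lpin1* had 0.81 ± 0.30 (adjusted p = 0.181, and 0.0238 with library size alone), *Mogat1* 0.91 ± 0.43 (adjusted p = 0.325), *Agpat2* 0.73 ± 0.47 (adjusted p = 0.499), *Gpam* 0.49 ± 0.30 (adjusted p = 0.468) and *Lpin2* -0.34 ± 0.15 (adjusted p = 0.278). *Agpat3* and *Lpin3* had 0.033 ± 0.19 and 0.046 ± 0.32. With library size alone, 494 of the 533 genes called were higher in this contrast, in place of 362 of 532, and the median of all genes was 0.21 in place of -0.0041.

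Around the 10 genes stand 46 other genes of the pathway in 6 lists. In sWAT, 42 of them were tested, of which 1 rose and 7 fell, with a median log2 fold change of -0.25, beside the 5.31% of all genes called in sWAT. The glycerol-3-phosphate supply list, of enzymes that supply the backbone and a glycerol channel, had 3 of 6 genes lower and 0 higher, with a median of -0.73. *Pck1*, the entry enzyme of glyceroneogenesis, fell by 1.37 ± 0.30 on the log2 scale (adjusted p = 0.0294). *Gpd1*, which reduces dihydroxyacetone phosphate to glycerol-3-phosphate, fell by 1.32 ± 0.29 (adjusted p = 0.0321), and *Aqp7*, the glycerol channel of adipocytes, by 1.07 ± 0.25 (adjusted p = 0.0355). *Gk*, glycerol kinase, had 0.49 ± 0.20 (adjusted p = 0.195). Among the other acyltransferases and phosphatases, 1 of 12 rose and 1 fell, with a median of 0.26. *Agpat4*, a further member of the AGPAT family, rose by 1.20 ± 0.17 (adjusted p = 0.00512) and *Gpat4*, the microsomal counterpart of *Gpam*, fell by 0.78 ± 0.16 (adjusted p = 0.0208), while *Agpat1* had -0.51 ± 0.16 (adjusted p = 0.0967, and 0.0498 without Csn8AKO replicate 4).

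Of the 7 transcription factors in sWAT, 2 fell and 0 rose, with all 7 log2 fold changes below 0 and a median of -1.25. *Mlxipl*, which encodes the carbohydrate response factor ChREBP, fell by 1.65 ± 0.36 (adjusted p = 0.0347) and *Srebf1*, the factor of fatty acid synthesis, by 1.39 ± 0.31 (adjusted p = 0.0314), and *Ppargc1a*, a coactivator of mitochondrial genes, had -1.29 ± 0.39 (adjusted p = 0.0906, and 0.0426 and 0.0416 without Ctrl replicate 1 and Csn8AKO replicate 4). Of the 7 genes of the phospholipid branches, *Cds1*, which turns phosphatidic acid to CDP-diacylglycerol and so away from triglyceride, fell by 1.07 ± 0.23 (adjusted p = 0.0263), and *Chpt1*, of phosphatidylcholine synthesis, had -0.69 ± 0.29 (adjusted p = 0.213). No acyl-CoA synthetase of 4 and no gene of 6 for lipid droplet assembly and lipin dephosphorylation was called in sWAT by the edgeR test. The largest differences there were -0.61 ± 0.24 for *Acsl3* (adjusted p = 0.193) and -0.83 ± 0.80 for *Fitm1* (adjusted p = 0.624). Without any one of Ctrl replicates 2, 3 and 4 or Csn8AKO replicates 1 and 3, only 1 of the 42 genes was called, *Agpat4*, whereas 12 were called without Csn8AKO replicate 4. Scaled by library size alone, *Agpat4* lost its call (1.10, adjusted p = 0.130), as did *Gpat4* and *Cds1* (adjusted p = 0.150 and 0.0873), and 0 of the 42 rose and 8 fell. The count for all genes moved with the libraries, from 1000 to between 326 and 481 without one of those 5 libraries.

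In BAT, 43 of the 46 genes were tested, of which 8 rose and 8 fell, with a median log2 fold change of -0.060. Those 16 of 43 are near the 31.9% of all genes called in BAT and are not a result about the lists together. The glycerol-3-phosphate supply genes had 4 of 6 lower and 0 higher, with a median of -0.47. *Gpd1* fell by 0.94 ± 0.17 (adjusted p = 0.000736), *Aqp7* by 0.64 ± 0.11 (adjusted p = 0.000425), *Gpd1l*, a relative of *Gpd1*, by 0.30 ± 0.092 (adjusted p = 0.0219) and *Pck1* by 0.68 ± 0.24 (adjusted p = 0.0458), and *Gk* had 1.09 ± 0.46 (adjusted p = 0.106). *Gk* passed with DESeq2 (adjusted p = 0.0328), limma voom (0.0464), the replicate block (0.0174), one fit over all groups (0.0337) and without Ctrl replicate 5 (0.0400). The calls of *Gpd1l* and *Pck1* were lost without any of 5 libraries (adjusted p up to 0.0662) and of 7 libraries (adjusted p up to 0.104) of the 10, and with library size alone (-0.17, adjusted p = 0.245, and -0.59, adjusted p = 0.0803). Among the other acyltransferases and phosphatases, 5 of 13 rose and 1 fell, with a median of 0.49. *Lpgat1*, a lysophospholipid acyltransferase, rose by 0.68 ± 0.079 (adjusted p = 2.49e-05), *Agpat4* by 0.86 ± 0.17 (adjusted p = 0.00158) and *Plpp2*, a lipid phosphate phosphatase, by 0.59 ± 0.15 (adjusted p = 0.00812), and *Agpat1* fell by 0.36 ± 0.084 (adjusted p = 0.00477), a call lost with library size alone (-0.23, adjusted p = 0.132). *Plpp3*, a relative of *Plpp2*, had 0.53 ± 0.22 (adjusted p = 0.0951, and 0.000599 without Csn8AKO replicate 2). The other called genes of that list, named after their values were seen, were *Gpat3*, a microsomal relative of *Gpam*, with 1.20 ± 0.39 (adjusted p = 0.0421), and *Plpp1*, with 0.64 ± 0.22 (adjusted p = 0.0493).

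*Acsl5*, an acyl-CoA synthetase that activates fatty acids, rose in BAT by 1.13 ± 0.20 (adjusted p = 0.000840) as 1 of 5 in its list, and *Acsl6* had 1.98 ± 1.09 (adjusted p = 0.201, and 0.0216 without Ctrl replicate 1). Of the phospholipid branches, *Cds1* fell by 0.62 ± 0.097 (adjusted p = 0.000261), *Cept1* and *Selenoi*, whose products use diacylglycerol for phospholipid, rose by 0.43 ± 0.080 (adjusted p = 0.000966) and 0.31 ± 0.071 (adjusted p = 0.00390), and *Pcyt1a* had 0.099 ± 0.089 (adjusted p = 0.434). Of the 7 transcription factors, 2 fell and 0 rose, a share near the 31.9% of all genes called in BAT. *Cebpa*, a factor of adipocyte differentiation, fell by 0.95 ± 0.12 (adjusted p = 6.59e-05) and *Mlxipl* by 0.39 ± 0.094 (adjusted p = 0.00600). The call of *Mlxipl* was lost with library size alone (-0.25, adjusted p = 0.127) and in one fit over all groups (adjusted p = 0.233). *Ppargc1a* had 0.91 ± 0.42 (adjusted p = 0.131, and 0.0181 without Ctrl replicate 5). None of the 5 genes tested for lipid droplet assembly and lipin dephosphorylation was called by the edgeR test, with *Bscl2*, which encodes seipin, at 0.19 ± 0.14 (adjusted p = 0.320). The adipocyte genes *Plin1*, the coat protein of lipid droplets, and *Adipoq*, which encodes adiponectin, had 0.16 ± 0.092 (adjusted p = 0.206) and 0.092 ± 0.090 (adjusted p = 0.474) in BAT, beside -0.94 ± 0.31 (adjusted p = 0.114) and -0.68 ± 0.26 (adjusted p = 0.173) in sWAT, where all Csn8AKO libraries were below all Ctrl libraries for both. *Adgre1*, a macrophage gene, rose by 1.63 in BAT (adjusted p = 6.29e-06) and by 1.31 in sWAT (adjusted p = 0.00180), and *Ucp1* had 0.53 ± 0.27 in BAT (adjusted p = 0.167). The plot of the pathway genes shows each list.

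**Figure D5:**
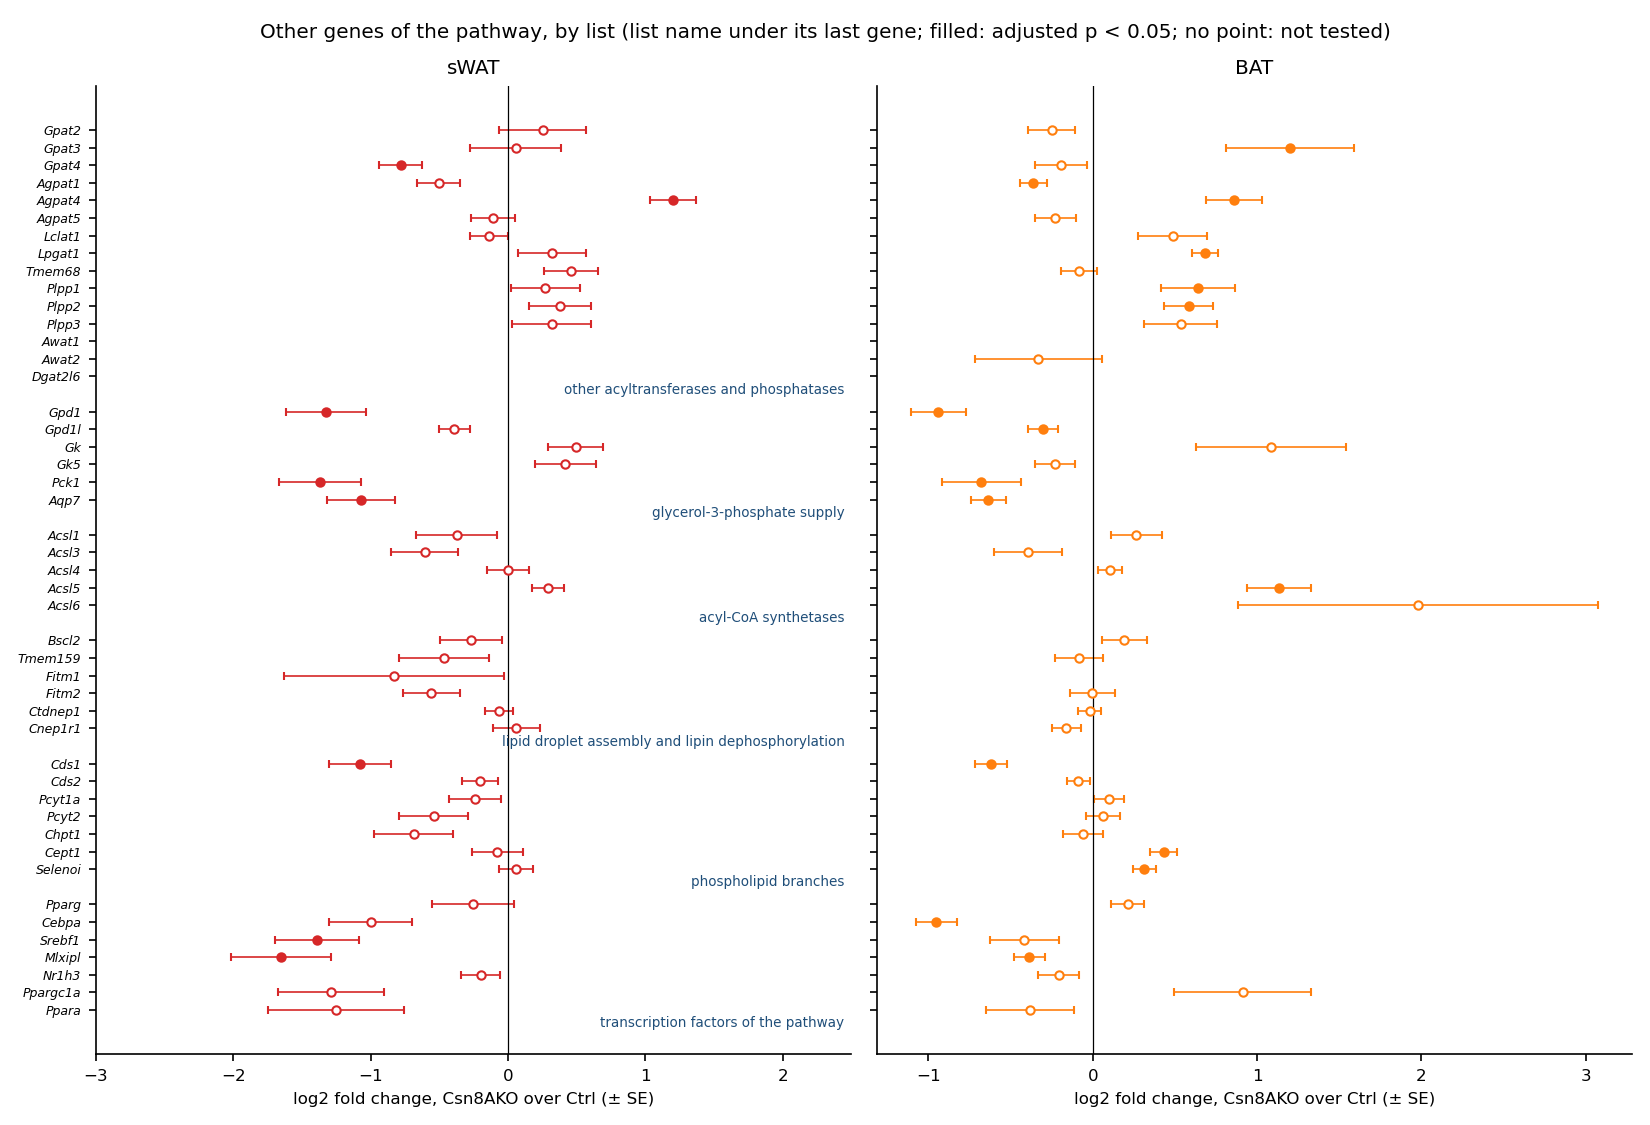
Log2 fold change in Csn8AKO over Ctrl mice (x axis, bars ± SE from the edgeR fit) of the other genes of the pathway, by list, in sWAT (left) and BAT (right), with filled points for an adjusted p under 0.05 and no point for genes not tested. *Gpd1*, *Pck1* and *Aqp7* lie below 0 and are filled in both depots, and *Agpat4* lies above 0 and is filled in both.

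Finally, the genes whose log2 CPM followed most closely the member with the smallest adjusted p in each depot were listed. In sWAT these were *Col18a1*, a basement membrane collagen (Pearson r = 0.978), *Tubb2a*, a beta-tubulin (0.963), and *Ube2z*, a ubiquitin-conjugating enzyme (0.960), with *Mogat2* over the 8 libraries, from 9842 genes compared. In BAT they were *Aqp1*, a water channel (0.988), *Wdr37* (0.984) and *Ppp6r2*, a subunit of protein phosphatase 6 (0.983), with *Dgat2* over the 10 libraries, from 9237 genes. These correlations describe libraries that share the difference between genotypes.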

How the data were processed

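RNA was depleted of ribosomal RNA and sequenced as paired reads by the authors, who aligned it with STAR 2.7.9a to the Ensembl annotation of GRCm38. They counted, per gene, the reads that aligned uniquely and were unambiguous. The strand setting of the counting is not given in the sources used here. The authors deposited raw counts for 18 libraries, each from 1 mouse, together with CPM, FPKM and TPM values derived from the same counts. The deposited CPM, FPKM and TPM values were recomputed from the counts (largest deviation 4.7e-10) and not used further.

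Counts were fitted with edgeR 4.0.16 (R 4.3.3, TMM factors, robust quasi-likelihood, and the filterByExpr filter at 10 reads per library and 15 in total) within each depot, and over all 18 libraries for the interaction and for Ctrl BAT against Ctrl sWAT. P-values were adjusted by Benjamini-Hochberg over all genes tested and genes were called under 0.05. The SE of a log2 fold change was derived from the edgeR fit. It is the absolute log2 fold change over the square root of the quasi-likelihood F statistic. Read ratios, with a pseudocount of 0.5, were tested by exact permutation, two-sided. The fits were also run on simulated counts with changes of known size. Those simulations were not built to hold libraries set apart like those of sWAT, and their outcome is not used here. No pair of libraries within a group agreed within sampling noise (smallest median squared deviation of any pair 2.30).

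The alternatives were RLE factors, library size alone, no filter, DESeq2 1.42.0, limma 3.58.1 voom with quality weights, one fit over the 4 groups, a term for the replicate number, no ribosomal RNA genes, a ratio pseudocount of 5, each library left out in turn and, added after seeing the data, the 2 libraries with over 30% ribosomal RNA left out. The genes and lists were chosen with earlier results of these data known. Genes were named by rule as all 10 members, in each list and depot up to 4 called genes by adjusted p and the largest difference not called, the 3 genes most like the member of smallest adjusted p (mean log2 CPM of at least 3), and *Cops8*, *Plin1*, *Adipoq*, *Adgre1* and *Ucp1*. Positions are those deposited with the counts. The GENCODE annotation of GRCm38, which gave the gene names, placed 54870 of the 55487 genes identically, and *Lpin1* not identically. Upstream windows were found for 7 of the 10 genes in RefSeq, and not for *Dgat1*, *Dgat2* and *Mogat2*. Marker lists for neutrophils, B and T cells, skeletal muscle, endothelium, erythroid cells and epithelium were summed too. None of the 5 epithelial markers passed the filter in either depot, so they were not tested. Of 6 neutrophil markers, 2 were tested in sWAT and 1 in BAT and 0 were called by edgeR, while their sums were 1.87 to 3.85 CPM in sWAT Ctrl, 3.79 to 14.1 in sWAT Csn8AKO, 0.542 to 0.756 in BAT Ctrl and 1.03 to 1.52 in BAT Csn8AKO. None of the 5 erythroid markers was called by edgeR. In BAT, where 31.9% of all genes were called, 3 of 10 B and T cell markers rose and 1 fell, as did 2 and 1 of 6 skeletal muscle markers, and 1 of 6 endothelial markers rose. In sWAT 0 of these markers were called, but some sums spread widely between libraries. Skeletal muscle markers summed to 194 to 3152 CPM in sWAT Ctrl and 53.7 to 1870 in sWAT Csn8AKO. B and T cell markers summed to 10.6 to 300 and 12.5 to 539. The part of this spread in the sWAT results was not tested.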

Additional observations from a re-analysis of the deposited data

Results flagged for a closer look

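Of 40 groups of libraries, 1 for each gene and group, 7 held a library that stood apart from the others of its group by Dixon's criterion at the 95% level, where chance gives about 1 in 20. In sWAT, Ctrl replicate 2 stood apart for *Agpat2* (579 CPM, the others 224 to 228), *Dgat2* (2115 CPM, the others 1017 to 1139.5) and *Mogat2* (3.595 CPM, the others 0.519 to 0.724). All 3 were higher in BAT than in sWAT of Ctrl mice, as were 7 of the 10 genes. *Lpin3* and *Mogat1*, lower in BAT, were also highest in that library, as was *Plin1* (1935 CPM, the others 1394 to 1489). The same library was the highest sWAT Ctrl library for every gene but *Lpin2*, and it had 136 reads of *Ucp1*, the others 7 to 10. Ctrl replicate 1 stood apart for *Lpin1* (418 CPM, the others 764 to 783). In BAT, Csn8AKO replicate 2 stood apart for *Agpat3* (525 CPM, the others 353 to 399), Ctrl replicate 5 for *Dgat1* (349 CPM, the others 249 to 262) and Csn8AKO replicate 5 for *Dgat1* (856 CPM, the others 405 to 535). The genotype difference of *Mogat2* differed between sWAT at 12 weeks and BAT at 4 weeks by the interaction test, by -3.43 on the log2 scale (BAT minus sWAT). The causes were not tested.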

How the results depend on the processing

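The calls of sWAT moved most. Genes called in sWAT numbered 1000, and 434 with library size alone, 1946 with DESeq2, 2155 with limma voom, 299 with a replicate block, 2463 in one fit over all groups, 382 without the 2 libraries of high ribosomal RNA (an alternative chosen after seeing the data) and 326 to 1477 with each library left out. Of the 10 genes, 1 was called there, and 2, 5, 4, 0, 6, 0 and 0 to 1 under those settings in that order, and 0 with no filter. Of the other pathway genes 8 were called, and 1 with the block, 5 without the 2 libraries and 1 to 12 with each library left out. In BAT the leave-one-out counts were 5723 to 8146 for all genes, 3 to 5 of the 10 genes and 12 to 20 of the other pathway genes. The interaction called 532 genes, and 1092 with DESeq2, 903 with limma voom, 818 without the 2 libraries and 355 to 720 with each library left out, of which the 10 genes gave 1, and 3 with library size alone, 0 with no filter, 2 with DESeq2, 2 with limma voom and 0 to 2 with each library left out. Ctrl BAT against Ctrl sWAT gave 10671 to 12257 genes and 7 to 9 of the 10 with each library left out. The cause was not tested.

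Signs turned for genes that were not called. *Gpam* in sWAT was -0.13 with library size alone and -0.31 without the 2 libraries (leave-one-out -0.12 to 0.24). *Dgat1* in sWAT was -0.15, -0.019, -0.0051, -0.0031 and -0.30 with library size alone, no filter, the block, one fit and the 2 libraries out (-0.17 to 0.16), and *Lpin3* there ran from -0.32 to 0.029. In BAT, *Agpat2* was 0.047 with library size alone (-0.16 to 0.079), *Lpin1* -0.040 with limma voom and -0.00061 in one fit (-0.054 to 0.079) and *Lpin3* 0.049 with library size alone (-0.16 to 0.017). In the interaction, limma voom gave -0.099 for *Agpat3* (-0.074 to 0.096), -0.12 for *Lpin3* (-0.12 to 0.26) and -0.31 for *Dgat2* (-0.31 to 0.23). Without the 2 libraries the *Dgat2* to *Dgat1* difference in sWAT was -1.25 (exact permutation test, p = 0.0667, the smallest possible). With each library left out it was -1.26 to -1.04 in sWAT and -2.28 to -1.88 in BAT, the *Lpin1* to *Lpin2* difference -1.44 to -0.93 and -0.11 to 0.037, and the *Agpat2* to *Agpat3* difference -0.64 to -0.12 and 0.26 to 0.45.

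No pairing of libraries by replicate number was detected, which so few libraries cannot exclude. Same-numbered deviations from the group means correlated between -0.39 and 0.22 in sWAT and between -0.098 and 0.10 in BAT. Of the numbers, 0 of 4 in sWAT and 2 of 5 in BAT correlated best with their own. With the replicate block *Mogat2* in sWAT was 3.03 (adjusted p = 0.103), and the 4 calls among the 10 genes in BAT were kept in number.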
